A study of Solanum lycopersicum with 18 samples.

Results

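The response of tomato fruit to growing location was compared between the local varieties San Marzano (SM) and Vesuviano (RSV) and the reference variety Heinz (H). For each gene the contrast was the mean of the Acerra minus Sarno differences of SM and RSV, minus that difference in H, on log2(FPKM + 0.5), where FPKM is the number of fragments mapped to a transcript, scaled by its length and by the mapped fragments of the library. A positive contrast means that expression at Acerra relative to Sarno was higher in the local varieties than in H, and a negative contrast that it was lower. Genes were matched by an identifier that stood alone and once in the table of each variety, which gave 29534 genes. Of these, 13905 averaged 0.5 FPKM or more across all 18 libraries. A further 256 of them were listed at 0 in all 3 libraries of at least 1 group and were set apart, which left 13649 genes (46.2% of those matched) for the test.

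The libraries were made from red ripe fruit of plants grown in open field. There were 6 groups of 3 libraries: SM at Acerra, SM at Sarno, RSV at Acerra, RSV at Sarno, H at Acerra and H at Sarno. Per the study's methods, each variety stood in blocks divided into plots, and fruit of 1 variety was pooled within a plot and then split into aliquots. The methods count fewer libraries than the 18 samples of the labels, and it is not stated whether the 3 samples of a group are separate plots or separate preparations, so the p-values measure the spread between these libraries, which may be technical. The locations differed in air temperature, humidity, rain and soil, and these cannot be told apart here.

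Ripening fruit remodels its cell walls, makes ethylene and fills with sugars, pigments and volatiles, and the genes that carry this out respond to the conditions in which the plant grows. Where the response to the environment depends on the genotype, the difference between environments is not the same in all varieties, and this is what an interaction contrast measures. Levels were not compared between varieties, because the reads of each variety were aligned to its own assembly and quantified in a separate run.

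Each library had between 16199 and 18000 matched genes above 0 FPKM. The summed FPKM of all loci was between 892841 and 1433619 in 17 libraries and 3279109 in RSV Sarno replicate 3, which stood apart. H Sarno replicate 1 also stood apart, since in 311 of the 13649 tested genes it exceeded 5 times the next of the 3 H libraries at Sarno, against 9 genes for replicate 2 and 46 for replicate 3. By another measure H Sarno replicate 3 was the furthest from the other H libraries at Sarno. Over genes with a mean of at least 10 FPKM, the spread of its log2 ratios (scaled median absolute deviation) was 0.38 to replicate 1 and 0.39 to replicate 2. Between replicates 1 and 2 it was 0.25. The summed FPKM of the matched genes was between 592352 and 673121 in SM at Acerra against 506353 to 576868 in SM at Sarno, and between 651949 and 672649 in RSV at Acerra against 594845 to 650861 in RSV at Sarno. In H it was between 698613 and 715411 at Acerra against 534735 to 572978 at Sarno. The replicates of H at Sarno were the least alike, with a median SD of 0.23 on the log2 scale, while RSV at Acerra had the lowest, 0.13. Of the genes used to check the tissue label, the fruit cell wall enzyme beta-galactosidase (Solyc12g008840) was at 12.1 to 83.7 FPKM and endoglucanase 1 (Solyc09g010210) at 8.84 to 265 FPKM over the 18 libraries. The means of both enzymes were higher at Sarno in each variety. The third fruit marker, 1-aminocyclopropane-1-carboxylate synthase 2 (Solyc01g095080), was at 20.3 to 532 FPKM. It was far above the other libraries of the group in RSV Sarno replicate 3 (532 FPKM) and H Sarno replicate 1 (246 FPKM). The chlorophyll a-b binding proteins Solyc03g115900 and Solyc05g056050, which mark green tissue, stayed at or below 10.6 and 3.98 FPKM. In each variety their means were also higher at Sarno. The third green marker, the photosystem II-associated protein Solyc06g060340, reached 85.3 FPKM and is described with the photosynthesis genes.

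The contrast between the local varieties and H passed the threshold in a small share of genes. In 20 of the 13649 genes (0.147%) the contrast passed an adjusted p of 0.05 (limma with Benjamini-Hochberg adjustment over all tested genes), with 4 positive (0.0293%) and 16 negative (0.117%). Without adjustment, 2208 genes (16.2%) had a p below 0.05. The median contrast of all tested genes was -0.10 and not 0, and it was 0.01 once every library had been scaled by the median of its ratios to the average library. All contrasts are given as fitted and include this shift of 0.11 on the log2 scale. After that scaling 7 genes passed, 5 positive and 2 negative, and after quantile normalization 6 passed, 4 positive and 2 negative, so that the excess of negative contrasts was not kept under either scaling. A set of 6 of the 20 genes passed in all 3 versions, namely the 4 positive ones, Solyc12g017230, Solyc02g014510, Solyc02g080890 and Solyc12g011450, and the negative ones Solyc02g090120 and Solyc06g009950.

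**Figure D1:**
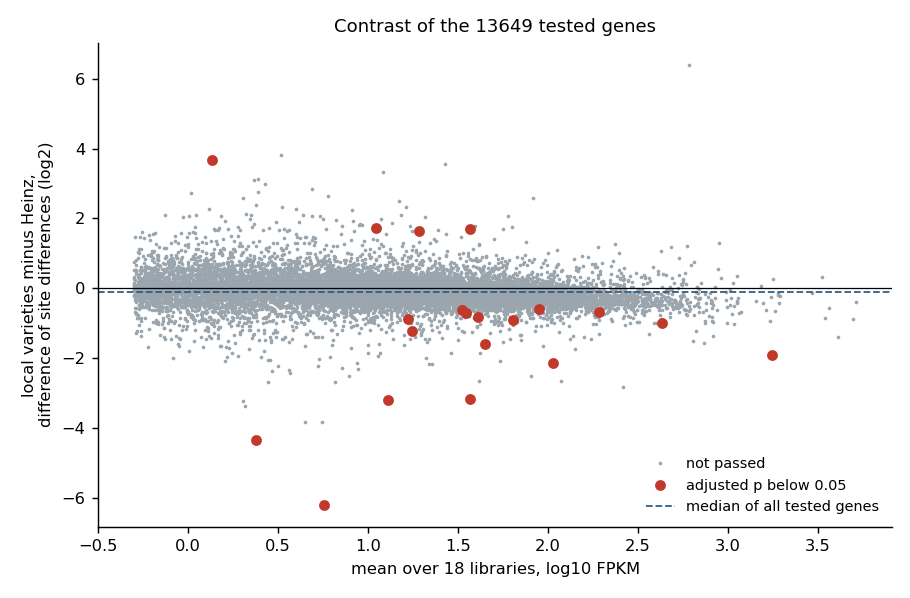
Contrast of each of the 13649 tested genes (vertical axis, log2) against its mean over the 18 libraries (horizontal axis, log10 FPKM). Red points are the 20 genes with an adjusted p below 0.05, of which 4 lie above 0 and 16 below, and the dashed line is the median of all genes at -0.10.

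The precision varied between genes. The 95% confidence interval of the contrast extended by a median of 0.45 on either side of the estimate, and for 9916 genes (72.7%) it lay wholly within 1 log2 unit of 0. Among the genes that did not pass, some therefore have an interval wide enough to hold a large difference. The largest contrast of all was of this kind. Solyc09g030360, singled out after its values were seen, had a contrast of 6.40 ± 2.01 (SE) with an adjusted p of 0.156, from location differences of 0.07 in SM, 0.39 in RSV and -6.17 in H. Just inside the threshold were Solyc08g075780, Solyc02g080270, Solyc03g112770 and Solyc10g050770 at an adjusted p of 0.0496, and just outside it Solyc09g007790 and Solyc05g006580 at 0.0571.

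Each local variety was also set against H on its own, with the H libraries shared by both comparisons. The SM minus H contrast passed in 13 genes (0.0952%), 3 positive (0.022%) and 10 negative (0.0733%), with a median of -0.07 over all genes and 1762 genes at an unadjusted p below 0.05. The RSV minus H contrast passed in 14 genes (0.103%), 5 positive (0.0366%) and 9 negative (0.0659%), with a median of -0.14 and 2350 genes at an unadjusted p below 0.05. Far more genes differed between the locations within a variety. In the same fit, Acerra and Sarno differed in 1937 genes of SM (14.2%), in 2239 of RSV (16.4%) and in 3395 of H (24.9%). The SM count held 1232 genes higher at Acerra (9.03%) and 705 lower (5.17%), and the RSV count 1042 higher (7.63%) and 1197 lower (8.77%). The H count held 2474 genes higher at Acerra (18.1%) and 921 lower (6.75%), against 1533 and 1478 after median ratio scaling, and 1260 and 1252 after quantile normalization, so the surplus at Acerra in H depended on the scale of the libraries. In SM the split was 1147 higher and 883 lower after median ratio scaling and 988 higher and 1366 lower after quantile normalization, which turned the surplus round. In RSV it was 1145 and 1149 after median ratio scaling and 1159 and 1167 after quantile normalization. The totals also depended on the scale. They were 2030 in SM, 2294 in RSV and 3011 in H after median ratio scaling, and 2354, 2326 and 2512 after quantile normalization. As fitted, the median absolute log2 difference between the locations was 0.24 in SM, 0.25 in RSV and 0.30 in H. Whether the counts of the 3 varieties differ was not tested.

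Among the 20 genes, the location difference was larger in size in H than in the mean of the local varieties in 16 genes (61.1% of all tested genes showed this), and of opposite sign in 12 (27.3% of all tested genes). These genes were picked by the contrast itself, so the counts describe them and are no test. Set against H on its own, SM passed in 8 of the 20 genes (0.0952% of all tested genes) and RSV in 6 (0.103%). Both passed in 1 gene, Solyc02g014510, and neither passed in 7. The difference between Acerra and Sarno passed in H in 18 of the 20 genes (24.9% of all tested genes passed), in SM in 6 (14.2%) and in RSV in 9 (16.4%). It passed in H alone in 8 genes with expression higher at Acerra (9.89% of all tested genes) and in 1 gene, Solyc12g011450, with expression higher at Sarno (3.16%). The libraries of the locations did not overlap in H in 18 of the 20 genes (38.3% of all tested genes). They did not overlap in SM in 10 genes (34.4%) and in RSV in 15 (39.5%). The genes lay on 11 chromosomes, with 5 on chromosome 2 and 3 each on chromosomes 6 and 9. None of their 40 neighbouring tested genes passed. Beside the negative genes 23 of 32 neighbours were also negative, against 63.2% of all tested genes. Beside the positive genes 3 of 8 neighbours were also positive. Some of these neighbours had the coordinates of the called gene. They were Solyc12g017240 in all varieties, Solyc09g009290 in SM and RSV, and Solyc07g007740 and Solyc07g007770 in RSV. The counts of neighbours include these genes.

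**Figure D2:**
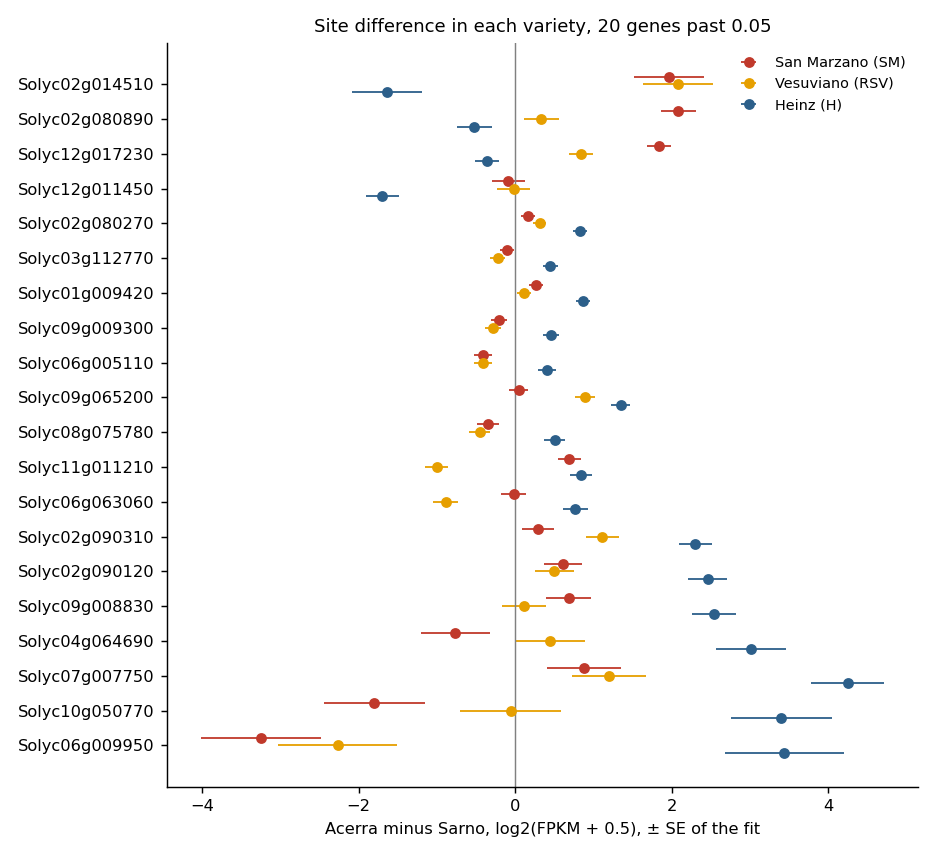
Acerra minus Sarno difference (horizontal axis, log2, with the SE of the fit) of the 20 genes with an adjusted p below 0.05, in SM (red), RSV (orange) and H (blue). Genes are ordered by the contrast. In the top 4 the H value lies left of both local values, and in the other 16 it lies right of both.

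Of the 4 positive genes, Solyc12g017230 had the smallest adjusted p of all genes and no description in the sources used here. In SM it was at 73.8, 84.7 and 94.2 FPKM at Acerra and at 21.7, 21.1 and 26.7 FPKM at Sarno. In RSV it was at 59.4, 56.4 and 53.3 FPKM at Acerra and at 26.0, 36.8 and 31.7 FPKM at Sarno, and in H at 10.9, 13.4 and 10.9 FPKM at Acerra and at 12.4, 15.7 and 17.98 FPKM at Sarno. All Acerra libraries lay above all Sarno libraries in SM and in RSV, while those of H overlapped. Its log2 difference between locations was 1.84 in SM, 0.84 in RSV and -0.36 in H, and the contrast was 1.71 ± 0.19 (SE) with an adjusted p of 0.00274 (limma). The SM minus H contrast passed with an adjusted p of 0.000641, whereas RSV minus H missed the threshold at 0.0501. It was the only one of the 20 genes that passed in all 18 fits that left out 1 library, where its adjusted p was at most 0.0217.

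Solyc12g017230 shares its locus with a gene of known family. In the table of each variety it carried the same coordinates as Solyc12g017240, described as xyloglucan endotransglucosylase/hydrolase 7, an enzyme that cuts and rejoins xyloglucan in the cell wall. In the H assembly this locus was on chromosome 12 from 6421905 to 6427791. How fragments were divided between these genes is not known, so the value of either is uncertain. The enzyme gene itself differed between Acerra and Sarno by 3.49 in SM, 2.91 in RSV and 2.51 in H on the log2 scale, and its contrast was 0.69 ± 0.71 (SE) with an adjusted p of 0.678.

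Solyc02g014510 was a gene of low expression whose location difference was reversed between the local varieties and H. It was at 3.49, 6.40 and 1.56 FPKM in SM at Acerra, against 0, 0.508 and 1.40 FPKM in SM at Sarno. In RSV it was at 2.84, 1.60 and 1.55 FPKM at Acerra, against 0, 0.256 and 0 FPKM at Sarno, and in H it was at 0.142, 0 and 0.282 FPKM at Acerra, against 1.51, 1.48 and 1.40 FPKM at Sarno. The locations did not overlap in any variety, with Acerra above in SM and RSV and below in H. The log2 differences were 1.96, 2.08 and -1.64 in SM, RSV and H, and the contrast was 3.66 ± 0.55 (SE) with an adjusted p of 0.0284. Here SM minus H and RSV minus H each passed, with adjusted p-values of 0.0481 and 0.0477. With values this close to 0 the size of the contrast followed the pseudocount, and it was 2.60 with a pseudocount of 1 and 6.22 with 0.1.

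In Solyc02g080890 the contrast came mainly from SM. Its SM values were 16.9, 22.1 and 21.3 FPKM at Acerra and 2.79, 6.10 and 4.64 FPKM at Sarno. In RSV they were 14.2, 15.03 and 11.9 FPKM at Acerra and 9.87, 11.04 and 11.3 FPKM at Sarno, and in H 6.91, 5.93 and 7.89 FPKM at Acerra and 10.3, 7.50 and 13.2 FPKM at Sarno. The location difference was 2.09 in SM, 0.33 in RSV and -0.52 in H, of which only that of SM passed, and the libraries of the locations overlapped in H alone. The contrast was 1.73 ± 0.28 (SE) with an adjusted p of 0.0284. The difference between RSV and SM in the location response also passed (adjusted p = 0.0422), as it did in 51 of all tested genes (0.374%), 9 of them higher in RSV (0.0659%) and 42 lower (0.308%), so the mean of the local varieties hides unequal parts in this gene.

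In Solyc12g011450 the location difference passed in H alone. The gene was at 28.2, 24.7 and 32.1 FPKM in SM at Acerra and at 28.0, 30.6 and 31.4 FPKM in SM at Sarno. It was as even in RSV, at 29.6, 25.8 and 26.1 FPKM at Acerra and 31.0, 26.4 and 25.1 FPKM at Sarno. In H it was at 0.228, 0.266 and 0.567 FPKM at Acerra, against 3.43, 1.40 and 2.22 FPKM at Sarno. The locations overlapped in SM and RSV but not in H, where the log2 difference was -1.70 (adjusted p = 0.000198). The contrast was 1.65 ± 0.26 (SE) with an adjusted p of 0.0284. The H values at Acerra lay near the pseudocount of 0.5 FPKM. Over the 12 alternatives that kept all libraries the contrast ranged from 1.22 to 2.37 and passed in each. It passed in 10 of the 18 fits that left out 1 library. The locus was 1107 bp long in H, against 2067 bp in SM and 2054 bp in RSV, so these differences too were measured on loci of unlike length.

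**Figure D3:**
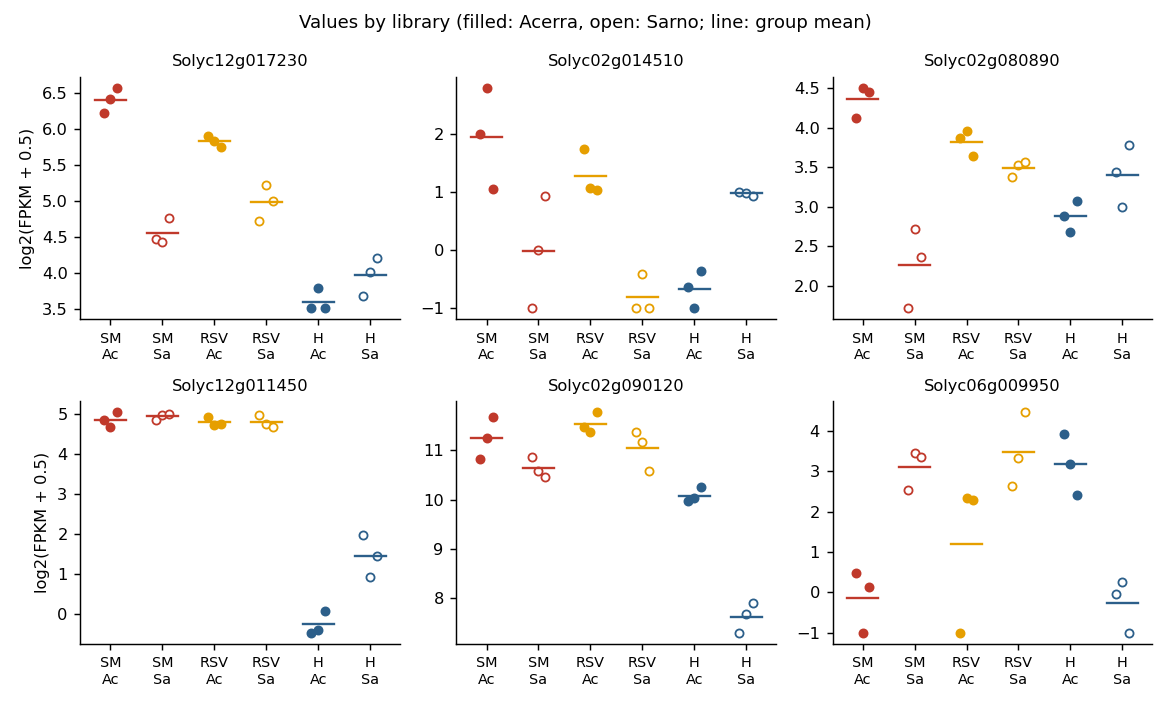
Expression of the 6 genes that passed as deposited and after both scalings, as log2(FPKM + 0.5) per library (vertical axis) in SM, RSV and H at Acerra (Ac, filled) and Sarno (Sa, open), with a line at each group mean. In Solyc12g011450 the SM and RSV libraries lie between 24.7 and 32.1 FPKM at either location, and in Solyc02g090120 the H libraries lie at or above 1001 FPKM at Acerra and at or below 239.5 FPKM at Sarno.

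No other positive contrast passed. The next 8 by p, among genes that averaged 1 FPKM or more with both local varieties on the same side of H, had adjusted p-values between 0.0612 and 0.0918. They were Solyc11g020920, Solyc12g009200, Solyc01g111630 and Solyc02g087620, with contrasts of 3.81, 2.08, 1.31 and 0.66, and Solyc08g081890, Solyc08g067160, Solyc04g011350 and Solyc10g078240, with contrasts of 1.11, 0.94, 0.82 and 0.73. Solyc01g111630 was at 117, 79.1 and 119 FPKM in SM at Acerra against 102, 116 and 134 FPKM at Sarno, and at 25.7, 28.6 and 25.8 FPKM in RSV at Acerra against 27.8, 26.0 and 35.8 FPKM at Sarno. H had 48.4, 32.8 and 60.0 FPKM at Acerra, against 141, 105 and 141 FPKM at Sarno, and these did not overlap.

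Among the negative contrasts, Solyc02g090120 was the most highly expressed. It was at 1824, 2427 and 3259 FPKM in SM at Acerra and at 1878, 1535 and 1406 FPKM in SM at Sarno, and at 2856, 2640 and 3494 FPKM in RSV at Acerra and 2645, 2314 and 1531 FPKM in RSV at Sarno. In H it was at 1001, 1043 and 1215 FPKM at Acerra, against 156, 203 and 239.5 FPKM at Sarno. The locations overlapped in SM and RSV, where the log2 differences of 0.61 and 0.50 did not pass, and were apart in H, where the difference was 2.46 (adjusted p = 9.92e-05). The contrast was -1.90 ± 0.30 (SE) with an adjusted p of 0.0284. Its locus in the H assembly was short, on chromosome 2 from 46322354 to 46322614, a length of 261 bp, whereas the locus that carried this identifier was 41807 bp long in SM and 41792 bp in RSV. The contrast of this gene thus sets location differences beside each other that were measured on loci of unlike length.

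Solyc06g009950 had the most negative contrast of all tested genes, -6.20 ± 0.93 (SE), with an adjusted p of 0.0284. It was at 0.887, 0 and 0.596 FPKM in SM at Acerra against 5.28, 10.5 and 9.72 FPKM at Sarno, and at 0, 4.53 and 4.37 FPKM in RSV at Acerra against 5.69, 9.57 and 21.5 FPKM at Sarno. H had 14.7, 8.54 and 4.86 FPKM at Acerra, against 0.468, 0.689 and 0 FPKM at Sarno. Sarno lay above Acerra without overlap in SM and RSV, and Acerra above Sarno in H. The log2 difference was -3.25 in SM and 3.44 in H, both past the threshold, and -2.27 in RSV with an adjusted p of 0.0542. The locus was 171 bp long. The contrast was -5.12 with a pseudocount of 1 and -8.30 with 0.1, and at 0.1 it no longer passed (adjusted p = 0.0601).

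Genes with a description from the study made up 113 of the tested genes, and 2 of them passed, against 20 of all 13649 (0.147%). The first was Solyc02g090310, a Dof zinc finger protein 4, a member of a plant-specific family of transcription factors. It was at 31.6, 37.8 and 35.5 FPKM in SM at Acerra against 26.9, 29.1 and 29.3 FPKM at Sarno, and at 81.3, 71.1 and 58.8 FPKM in RSV at Acerra against 29.7, 28.9 and 38.2 FPKM at Sarno. H had 64.6, 72.4 and 121 FPKM at Acerra, against 20.2, 12.9 and 16.7 FPKM at Sarno. Acerra lay above Sarno without overlap in all 3 varieties, by 0.29 in SM, 1.11 in RSV and 2.30 in H on the log2 scale, so the direction was shared and the size was not. The study listed the gene for RSV, among those that carry sequence variants, from the same libraries. The contrast was -1.60 ± 0.26 (SE) with an adjusted p of 0.0284, and after median ratio scaling and quantile normalization it was -1.48 and -1.44 with an adjusted p of 0.0813 and 0.067.

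The second was Solyc07g007750, a defensin, one of the small cysteine-rich peptides by which plants act against fungi. It was at 4.02, 3.63 and 3.94 FPKM in SM at Acerra against 0.826, 2.60 and 2.72 FPKM at Sarno, and at 21.0, 45.1 and 24.4 FPKM in RSV at Acerra against 11.6, 7.76 and 19.8 FPKM at Sarno. H had 14.0, 16.1 and 52.2 FPKM at Acerra, against 0.996, 0.628 and 0.594 FPKM at Sarno. All 3 varieties had Acerra above Sarno without overlap, with log2 differences of 0.88 in SM, 1.20 in RSV and 4.25 in H, and only that of H passed (adjusted p = 0.000164). The contrast was -3.21 ± 0.58 (SE) with an adjusted p of 0.0478, and it passed in 4 of the 18 fits without 1 library. The study listed this gene among those of H at Acerra from the same libraries, so its direction in H is not independent evidence. In RSV its locus was 46981 bp long, against 1268 bp in SM and 1267 bp in H, and also held the identifiers Solyc07g007720, Solyc07g007730, Solyc07g007740 and Solyc07g007770, and the neighbour Solyc07g007740 had a contrast of -1.47 ± 0.32 (SE) with an adjusted p of 0.0812.

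In a further pair of negative genes the contrast came largely from H. Solyc04g064690 was at 9.02, 8.39 and 10.8 FPKM in SM at Acerra against 13.1, 8.54 and 37.8 FPKM at Sarno, at 71.8, 87.0 and 61.1 FPKM in RSV at Acerra against 50.8, 49.0 and 60.2 FPKM at Sarno, and at 32.4, 73.5 and 73.3 FPKM in H at Acerra against 8.06, 3.67 and 9.01 FPKM at Sarno. Its contrast was -3.18 ± 0.54 (SE, adjusted p = 0.0385). Solyc09g008830 was at 101, 143 and 132 FPKM in SM at Acerra against 76.6, 54.5 and 109 FPKM at Sarno, at 221, 142 and 192 FPKM in RSV at Acerra against 189.7, 227 and 111 FPKM at Sarno, and at 53.2, 75.7 and 52.1 FPKM in H at Acerra against 10.8, 11.2 and 7.73 FPKM at Sarno, with a contrast of -2.14 ± 0.35 (SE, adjusted p = 0.0291). In both genes the location difference passed in H, at 3.02 and 2.54, and not in SM or RSV.

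Solyc10g050770, whose locus was 165 bp long, was listed at 0 in many libraries. It was at 0, 0 and 0.206 FPKM in SM at Acerra against 3.74, 0 and 3.03 FPKM at Sarno, at 0.193, 0 and 0 FPKM in RSV at Acerra against 0.137, 0.115 and 0 FPKM at Sarno, and at 13.4, 5.19 and 14.8 FPKM in H at Acerra against 0.970, 0.893 and 0 FPKM at Sarno. Its contrast of -4.33 ± 0.79 (SE, adjusted p = 0.0496) passed in 3 of the 18 fits without 1 library. Solyc11g011210 was the 1 gene of the 20 in which the local varieties moved in opposite directions with both passing. It was at 309.8, 263 and 386 FPKM in SM at Acerra against 192, 181 and 214 FPKM at Sarno, at 461, 501 and 518 FPKM in RSV at Acerra against 1054, 911 and 1007 FPKM at Sarno, and at 365, 437 and 317 FPKM in H at Acerra against 221, 207 and 193 FPKM at Sarno. The log2 difference was 0.69 in SM, -1.003 in RSV and 0.84 in H, so its contrast of -0.997 ± 0.18 (SE, adjusted p = 0.0478) lay in RSV. Accordingly RSV minus H passed (adjusted p = 0.0033) and SM minus H did not (adjusted p = 0.797), and RSV and SM differed with an adjusted p of 0.00237. The locus was 1431 bp long in SM, 1560 bp in RSV and 1029 bp in H.

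In each of the remaining 8 negative genes H was higher at Acerra without overlap of its libraries. Of all tested genes, 38.3% had no overlap in H, in either direction. The contrasts of the 8 genes lay between -0.59 and -1.22. Solyc06g063060 had the largest, -1.22 ± 0.20 (SE, adjusted p = 0.0284). It averaged 18.04 ± 4.4 FPKM in SM at Acerra against 18.1 ± 3.1 at Sarno, 12.25 ± 1.8 FPKM in RSV at Acerra against 23.0 ± 1.6 at Sarno, and 21.8 ± 1.6 FPKM in H at Acerra against 12.6 ± 1.1 at Sarno (SD, n = 3 each). RSV and H thus moved in opposite directions, each past the threshold, and SM showed a log2 difference of -0.02. Solyc06g005110 was lower at Acerra in SM and RSV, with a log2 difference of -0.41 in each, and higher in H at 0.41, all past the threshold. In Solyc09g065200 the difference was 0.05 in SM, 0.89 in RSV and 1.35 in H.

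In the other 5 genes the contrast was below 1 log2 unit in size. Solyc01g009420 averaged 171 ± 9.9 FPKM in SM at Acerra against 142 ± 11 at Sarno, 244 ± 12 FPKM in RSV at Acerra against 225 ± 17 at Sarno, and 245 ± 11 FPKM in H at Acerra against 134 ± 3.7 at Sarno (SD, n = 3 each). Its contrast was -0.68, and those of Solyc08g075780, Solyc09g009300, Solyc03g112770 and Solyc02g080270 were -0.91, -0.71, -0.62 and -0.59. After median ratio scaling the contrasts of these 5 genes were between -0.47 and -0.78, and none passed, with adjusted p-values between 0.0822 and 0.15. None passed after quantile normalization either, where Solyc01g009420 and Solyc02g080270 were at -0.39 with adjusted p-values of 0.218 and 0.165. In SM and RSV, Solyc09g009300 carried the same coordinates as Solyc09g009290, so its values there are uncertain.

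The described genes were grouped by the words of their descriptions. The study chose them on these samples, mostly for a difference between locations in 1 variety, so the direction of a list is not independent evidence. Of 151 described genes, 131 were matched, 4 were set apart and 113 were tested. Genes the study listed for H at Sarno had a positive contrast in 12 of 13 with a median of 1.31, and those listed for SM at Acerra in 29 of 36 with a median of 0.48. Those listed for RSV at Sarno had a negative contrast in 11 of 16 with a median of -0.83. Of all 13649 tested genes, 5020 had a positive contrast and 8629 (63.2%) a negative one. None of the genes in these 3 lists passed. The list for H at Sarno rested on few libraries, since H Sarno replicate 1 exceeded 5 times the next H library at Sarno in 10 of the 13 genes. The chitinase Solyc07g009530, for example, was at 90.8, 39.3 and 16.8 FPKM in H at Acerra, against 2707, 115 and 166 FPKM at Sarno. Without that library 9 of the 13 genes were left above the minimum, 5 positive and 4 negative, with a median of 1.28. The list for SM at Acerra had medians from 0.18 without H Acerra replicate 1 to 0.78 without H Sarno replicate 1, and that for RSV at Sarno from -1.43 without H Sarno replicate 1 to -0.32 without SM Sarno replicate 3. These medians with 1 library left out were added after seeing the data.

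No cell wall gene passed. The 9 xyloglucan endotransglucosylase/hydrolases (XTH) had a median of -0.42 against -0.10 for all tested genes, with 7 negative (63.2% of all tested genes were negative) and none with an unadjusted p below 0.05. Without H Sarno replicate 1 their median was 0.16, with 6 positive and 3 negative, so the direction of this list turned with 1 library. Their location differences were large in every variety, with medians of 3.42 in SM, 1.62 in RSV and 2.72 in H. The XTH with the largest contrast in size was Solyc07g052980 at -1.22 ± 0.61 (SE), and the 95% interval of Solyc07g056000, whose contrast was 0.01, extended from -1.49 to 1.52. The 15 other cell wall genes, which include pectinesterases, glycosyltransferases and cellulose synthase, had a median of -0.34 and 11 negative members, and their median ranged from -0.52 without H Sarno replicate 1 to -0.12 without H Acerra replicate 3. The lowest adjusted p among them was that of the glycosyltransferase Solyc02g089440, with a contrast of -0.63 ± 0.24 (SE, adjusted p = 0.207).

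No gene of the lists for ethylene passed with all libraries kept. The 7 genes of ethylene synthesis, which encode the synthases and oxidases of 1-aminocyclopropane-1-carboxylate, had a median of 0.02 and a range from -0.84 to 0.31, with no unadjusted p below 0.05, and the median lay between -0.19 without SM Sarno replicate 1 and 0.34 without H Sarno replicate 3. The ACC synthase 6 genes Solyc08g081550 and Solyc08g081540 had contrasts of 0.31 and -0.28, with 95% intervals from -0.26 to 0.87 and from -0.84 to 0.28. The 4 ethylene-responsive and CRT binding factors had a median of -0.06, which was 0.71 without H Sarno replicate 1 and -0.67 without H Sarno replicate 2. In the fit without replicate 2 all 4 were negative and 1 passed, against 25 of all 13668 genes in that fit. With all libraries kept, Solyc09g075420, ethylene responsive transcription factor 2b, had the lowest adjusted p of the 4 factors, with a contrast of -1.30 ± 0.30 (SE, adjusted p = 0.0918). Its location difference was 0.69 in SM, 0.97 in RSV and 2.13 in H, and the study had listed it for H at Acerra.

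No gene of the lists for signalling passed. The 5 WRKY transcription factors, which regulate defence genes, had a median of 0.68 with 4 positive, and their median location difference was 3.02 in SM, 0.78 in RSV and 1.97 in H. The 11 genes for calcium sensors, kinases and receptors had a median of 0.33 with 8 positive and 3 at an unadjusted p below 0.05 (16.2% of all tested genes). Without H Sarno replicate 1 the medians were 0.39 for the WRKY genes and 0.81 for the second list, which was at 0.08 without H Sarno replicate 3. Of the WRKY genes 1 passed without H Sarno replicate 1, against 56 of all 13585 genes in that fit. The largest was the SRC2 protein Solyc01g091590 at 2.60 ± 0.97 (SE, adjusted p = 0.209), with location differences of 4.22 in SM, 4.97 in RSV and 2.00 in H. The mitogen-activated protein kinase 3 gene Solyc06g005170 had a contrast of 0.33 ± 0.42 (SE). All 5 WRKY genes and the 11 genes of the second list were in the study's list for SM at Acerra.

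Of the lists by function with at least 10 tested genes, the highest median was that of the phenylpropanoid, oxidative and decarboxylase enzymes. Of the 15 tested genes 13 were positive, with a median of 0.96 against -0.10 for all genes, 1.07 after median ratio scaling and 1.03 after quantile normalization. An unadjusted p below 0.05 was found in 5 of them (16.2% of all tested genes), but none passed. Without H Sarno replicate 1 the median was 0.57, with 10 positive and 3 negative of the 13 genes left above the minimum. The decarboxylase family proteins Solyc08g068600, Solyc08g068680 and Solyc08g068610 had contrasts of 1.65 ± 0.48, 1.55 ± 0.54 and 0.98 ± 0.48 (SE), with location differences of 4.32, 3.57 and 3.07 in SM, 2.29, 1.20 and 1.37 in RSV and 1.65, 0.84 and 1.24 in H. For the cytochrome P450 genes Solyc06g066230 and Solyc01g109140, oxidases of secondary metabolism, the contrasts of 3.14 ± 1.02 and 2.85 ± 1.17 (SE) came from H, where the location difference was -2.76 and -3.53. In H at Sarno these genes were at 32.4, 2.95 and 0.789 FPKM and at 74.3, 5.01 and 1.03 FPKM, so replicate 1 was far above the others. The adjusted p of these 5 genes was between 0.136 and 0.334. The decarboxylases are from the study's list for SM at Acerra and the P450 genes from that for H at Sarno.

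Photosynthesis was represented by 2 tested genes with contrasts of opposite sign. The chlorophyll a-b binding protein Solyc03g115900 had a contrast of -0.81 ± 1.07 (SE) with an adjusted p of 0.759. The photosystem II-associated protein Solyc06g060340 was at 60.2, 7.55 and 42.8 FPKM in SM at Acerra against 65.1, 33.2 and 71.4 FPKM at Sarno. In RSV it was at 0.489, 0.466 and 0.817 FPKM at Acerra against 2.18, 1.26 and 7.65 FPKM at Sarno, and in H at 0.374, 2.22 and 1.98 FPKM at Acerra against 85.3, 21.7 and 74.3 FPKM at Sarno. Its contrast was 3.55 ± 0.91 (SE) with an adjusted p of 0.108, and it was also in the study's list for H at Sarno. The locations overlapped in SM and were apart in H and RSV. The part of green tissue in this or any other contrast was not tested.

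**Figure D4:**
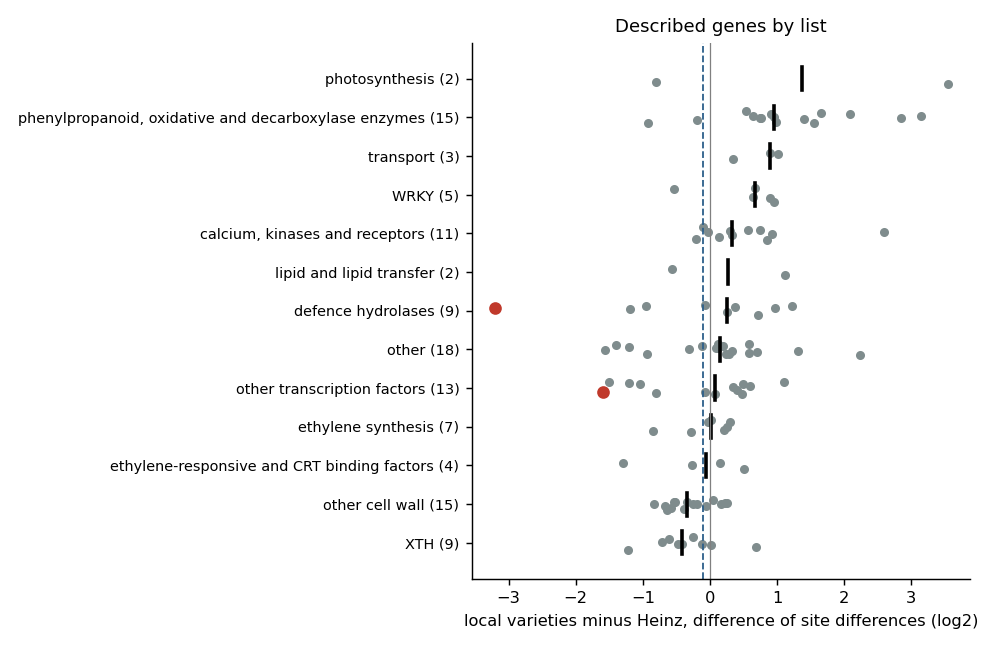
Contrast (horizontal axis, log2) of the 113 described genes by list, with the number of tested genes in parentheses. Black bars are list medians, from -0.42 for XTH to 1.37 for the 2 photosynthesis genes, which lie at -0.81 and 3.55, the dashed line is the median of all tested genes at -0.10, and the 2 red points are the genes with an adjusted p below 0.05, a defensin and a Dof zinc finger protein.

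The 256 genes set apart are given by value only, because a 0 in these tables can be a failed estimate. Of these, 106 were at 0 in whole varieties only, and 150 were at 0 at a single location of at least 1 variety. Those with a mean of at least 10 FPKM numbered 28. Solyc06g059740 was at 3643, 4032 and 3621 FPKM in SM at Acerra and at 4372, 4818 and 4737 FPKM in RSV at Acerra, and at 0 in all libraries of both at Sarno. In H it was at 3768, 3707 and 4723 FPKM at Acerra and at 2207, 4125 and 1702 FPKM at Sarno.

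The same listing, 0 at Sarno in SM and RSV but not in H, was shown by Solyc03g083910 and Solyc01g095330. Solyc03g083910 was at 941, 1824 and 1164 FPKM in SM at Acerra, at 1582, 1125 and 1188 FPKM in RSV at Acerra, and in H at 947, 1158 and 1563 FPKM at Acerra and 1763, 2303 and 2190 FPKM at Sarno. Solyc01g095330 was at 910.4, 858 and 1014 FPKM in SM at Acerra, at 871, 1063 and 1210 FPKM in RSV at Acerra, and in H at 997, 1013 and 928 FPKM at Acerra and 622, 852 and 969.6 FPKM at Sarno. In Solyc03g031860 and Solyc01g099190 the 0 values were confined to SM at Sarno. In all other libraries Solyc03g031860 was at 1878 FPKM or more and Solyc01g099190 at 1155 FPKM or more.

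Among genes at 0 in whole varieties, Solyc07g049140 was at 0 in SM and between 5377 and 17494 FPKM in the RSV and H libraries. Solyc11g027650 was above 0 in SM alone and Solyc00g011160 in H alone. Solyc04g071610 was above 0 in RSV at Acerra alone, at 20954, 20354 and 21772 FPKM. When the genes set apart were kept in the fit, 58 genes passed, 18 positive and 40 negative, in place of 20, and all 20 were among them.

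The count of genes that passed rested on single libraries. Leaving out 1 library at a time gave between 1 and 56 genes. Solyc12g017230 alone passed without H Acerra replicate 2 or H Sarno replicate 3, and the number was 2 without any 1 of the RSV Acerra replicates, 3 without RSV Sarno replicate 1, 4 without H Acerra replicate 1, and 6 and 7 without SM Acerra replicates 2 and 1. It was 13 without SM Sarno replicate 3 and 12 without RSV Sarno replicate 2. It was 48 without RSV Sarno replicate 3, the library with the highest summed FPKM, and 56 without H Sarno replicate 1. Without both of these, an alternative chosen after seeing the data, 105 genes passed, 27 positive and 78 negative, among them 19 of the 20. The sign of the contrast of each of the 20 genes was the same in every fit that was run. The genes were picked by this contrast and the fits share libraries, so a kept sign is no independent evidence.

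**Figure D5:**
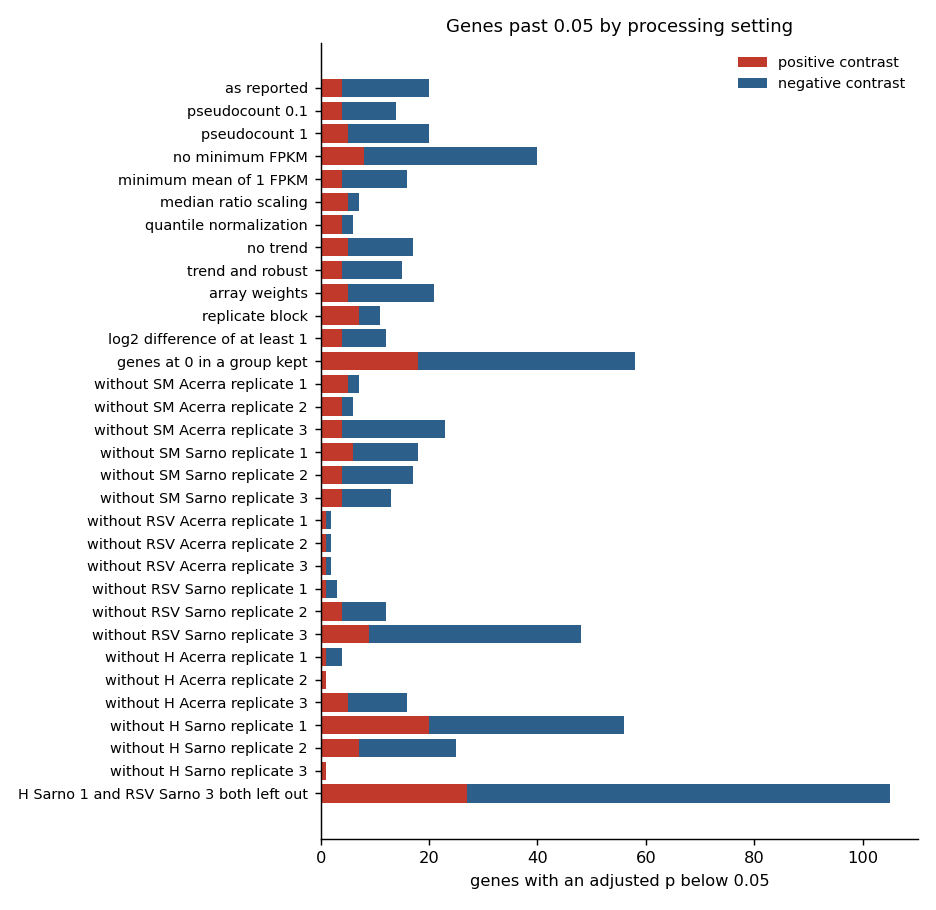
Number of genes with an adjusted p below 0.05 (horizontal axis), split into positive (red) and negative (blue) contrasts, as reported and under each alternative setting or with libraries left out. The number lies between 1 and 105 against 20 as reported, and negative contrasts are the larger part as reported but not after median ratio scaling (5 positive, 2 negative) or quantile normalization (4 positive, 2 negative), with a replicate block (7 positive, 4 negative) or in 7 of the fits without 1 library.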

How the data were processed

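Total RNA of powdered red ripe fruit is represented by 18 samples in the labels, called libraries here, 3 for each of 3 varieties at 2 locations, prepared with a TruSeq v2 kit whose strandedness is not given in the sources used here. The deposited values are FPKM per locus, computed by the authors for each variety separately: reads were called with CASAVA 1.8.2, aligned with TopHat2 2.0.6 to the genome of that variety and quantified with Cufflinks 2.1.1 with multi-read correction. The deposited FPKM are written with a decimal comma, which was read as a point. FPKM hold no read counts. The study lists sequenced and mapped fragments per sample, which differ between samples and were not used here, so no counting interval is given. In SM and RSV every Sarno sample had more sequenced fragments than every Acerra sample, and in SM also a higher mapped percentage. In H the locations overlapped in both. The part of depth and mapping in the contrast was not tested.

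Of 31454, 30731 and 30687 identifiers that stood alone and once in the tables of H, SM and RSV, 29534 were in all 3. Genes with a mean under 0.5 FPKM were left out and those at 0 in a whole group were set apart. A model with 1 mean per group was fitted to log2(FPKM + 0.5) with limma 3.58.1 (trended variance, R 4.3.3), p-values were adjusted by Benjamini-Hochberg over 13649 genes, and the method was tested on simulated data. Fold changes on this scale understate the change of low genes. Tables were read and plots drawn with Python 3.11.15, pandas 2.3.3 and matplotlib 3.10.9.

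The genes named were the described genes that passed and the 12 largest contrasts of each sign among genes past 0.05 that averaged 1 FPKM or more with both local varieties on the same side of H. Only 4 positive genes passed, so the next 8 by p were added and stated as not passed. The 4 called genes outside this rule, Solyc01g009420, Solyc09g009300, Solyc02g080270 and Solyc03g112770, were named so that all 20 are accounted for. Descriptions come from the study. The reference table paired none of the identifiers with a name. The members and lists were chosen with earlier results of these data known. Alternatives were other pseudocounts, minimums, scalings, variance models, library weights, a replicate term and the omission of libraries.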

Additional observations from a re-analysis of the deposited data

Results flagged for a closer look

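The location response differed between the mean of the local varieties and H by a test of the difference itself in 20 genes (limma, adjusted p below 0.05). The contrast was positive in Solyc02g014510 (3.66), Solyc02g080890 (1.73), Solyc12g017230 (1.71) and Solyc12g011450 (1.65). It was negative in Solyc06g009950 (-6.20), Solyc10g050770 (-4.33), the defensin Solyc07g007750 (-3.21), Solyc04g064690 (-3.18), Solyc09g008830 (-2.14), Solyc02g090120 (-1.90), the Dof zinc finger gene Solyc02g090310 (-1.60) and Solyc06g063060 (-1.22). It was also negative, and smaller in size, in Solyc11g011210 (-0.997), Solyc08g075780 (-0.91), Solyc09g065200 (-0.88), Solyc06g005110 (-0.82), Solyc09g009300 (-0.71), Solyc01g009420 (-0.68), Solyc03g112770 (-0.62) and Solyc02g080270 (-0.59). Set against H on its own, SM passed in 8 of these 20 genes (0.0952% of all tested genes) and RSV in 6 (0.103%). Both passed in Solyc02g014510 alone, and neither passed in 7.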

How the results depend on the processing

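The contrast of each of the 20 genes kept its sign under every alternative run, which is no independent evidence for genes picked by it in the same libraries. The splits of calls did not: 4 positive and 16 negative became 5 and 2 after median ratio scaling, 4 and 2 after quantile normalization and 7 and 4 with the replicate block, and the SM location calls, 1232 higher and 705 lower at Acerra, became 988 and 1366 after quantile normalization. Over the 12 alternatives that kept all libraries, 164 of the gene values stayed past the threshold and 76 did not, and with 1 library left out 152 did and 208 did not.

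For the local varieties against H, 20 genes as reported became 40 with no minimum, 7 after median ratio scaling, 6 after quantile normalization, 12 with a log2 difference of at least 1 and 58 with genes at 0 in a group kept. For SM against H, 13 became 30 with a pseudocount of 1, 23 with no minimum, 21 with a robust trend, 30 with library weights and 38 with genes at 0 kept. For RSV against H, 14 became 9 with a pseudocount of 0.1 or 1, 31 with no minimum, 2 with a minimum of 1 FPKM, 800 with library weights (135 positive, 665 negative) and 38 with genes at 0 kept. The location differences passed in 774, 805 and 941 genes of SM, RSV and H with a log2 difference of at least 1, and in 5263 genes of RSV with library weights. Without H Sarno replicate 1 and RSV Sarno replicate 3, chosen after seeing the data, 105, 68 and 227 genes passed for the local varieties, SM and RSV against H. Leaving out 1 library gave 1 to 56 genes for the local varieties, 5 to 40 for SM and 1 to 104 for RSV against H, and 935 to 2238, 1098 to 2557 and 2254 to 3780 location differences in SM, RSV and H. The cause of these changes was not tested.

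With the replicate number as a block, 11 genes passed for the local varieties (7 positive, 4 negative, 8 of the 20 among them), 8 for SM and 3 for RSV against H. Over 45 pairs of samples with the same number the correlation of their deviations was between -0.38 and 0.25 with a median of 0.01, and above 0.1 in 8 of them, so the samples were taken to share only a number.

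Precision could not be set by read depth, which was not used, and each variety is 1 cultivar grown in 1 season. A listed 0 cannot be told apart from a failed estimate.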
